A study of Mus musculus with 12 samples.

Results

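The genes described here are 40 genes of the DNA replication machinery, taken by name from a table of 23358 genes measured by RNA-seq in newborn mouse skull bone. All 40 were found, and all 40 were among the 16190 genes that passed the filter on low counts. By role they comprise 6 origin licensing genes, the 6 subunits of the MCM2-7 helicase, 8 origin firing genes, 8 polymerase and primase subunits, 7 genes of the sliding clamp, its loader and Okazaki fragment maturation, 3 nucleotide supply genes and 2 chromatin assembly genes. The 12 samples were frontal bone from postnatal day 3 mice, taken with the adjoining nasal bone and with both sutures at its edges, coronal and frontonasal. Before RNA was extracted, the tissue went through an enzyme digest (collagenase, trypsin). The 4 groups of 3 samples were wild type on C57BL/6, mutant on C57BL/6, wild type on BALB/c and mutant on BALB/c. Mutants carried 1 copy of the Crouzon syndrome allele of Fgfr2, C342Y, beside a wild-type copy, and no other allele or treatment is given for any group. Fgfr2 encodes a fibroblast growth factor receptor, and this allele is known for early fusion of the skull sutures. The labels do not say whether each sample was 1 animal, so p-values measure the spread between these samples.

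A cell copies its genome once per division. Before S phase, the origin recognition complex (Orc), Cdc6 and Cdt1 load the MCM2-7 helicase onto origins, and geminin (Gmnn) blocks Cdt1 afterwards. The kinase Cdc7 with Dbf4, together with Cdc45, the GINS complex and Mcm10, then turns the helicase on, and polymerases, the PCNA clamp and its loader RFC copy the strands. Most of these genes are transcribed in cycling cells and little in resting ones, so that in growing bone their RNA can come from osteoprogenitors and from dividing cells of the marrow and cartilage. In a bulk sample, fewer dividing cells and less RNA per dividing cell cannot be told apart.

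The osteoblast markers Runx2, Sp7, Bglap and Ibsp were each counted at 164 CPM or more in every sample. Levels per sample are given as CPM, scaled here by the TMM method, and library totals ran from 27181658 to 46521546 counts. The Fgfr2 counts do not separate the alleles, so the mutation itself was not checked. Fgfr2 ranged from 212 to 283 CPM in C57BL/6 wild type and from 337 to 375 CPM in C57BL/6 mutants. In BALB/c the ranges overlapped, at 269 to 290 CPM in wild type and 272 to 318 CPM in mutants. Both C57BL/6 groups hold a library that stands apart. Wild-type sample 1 had 114000 summed CPM over 11 osteoblast genes, against 192300 and 197100 in the other wild-type samples, and mutant sample 4 had 355 CPM of the cartilage gene Acan against 129.8 and 109. Y-linked genes summed to 4846 counts or more in all 3 C57BL/6 wild-type samples and in 1 sample of each other group, and to 60 or fewer in the other 6 samples. The labels carry 1 flow cell name for all C57BL/6 libraries and another for all BALB/c libraries, so that strain and flow cell cannot be told apart.

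Levels of the 40 genes were compared per length, as the authors' RPKM. Pcna, the sliding clamp, was the highest at 74.5 ± 17.2 RPKM (SD, n = 12), followed by Mcm7 at 24.6 ± 4.82 and Rrm2 at 22.9 ± 6.34. The lowest were Orc1 at 1.61 ± 0.453, Gins3 at 1.79 ± 0.433 and Cdc6 at 2.33 ± 0.833, and the ranges of these 3 overlapped. Pcna and Mcm7 had ranks 1 and 2 in each of the 4 group means, while Rrm2 had rank 3 in 3 groups and rank 5 in C57BL/6 mutants (13.3 RPKM), below Rfc2 (16.8) and Mcm6 (16.4). Orc1 had the lowest mean in each group; Cdc6 was among the 3 lowest in the C57BL/6 groups only, with Pole in its place in BALB/c. Raw counts of the 40 genes lay between 138 and 5952 per sample.

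On C57BL/6, many DNA replication genes were lower in mutants than in wild type. Of the 40, 20 fell and 0 rose (edgeR quasi-likelihood test, Benjamini-Hochberg adjusted p under 0.05 over all genes tested), where 12.6% of all genes fell and 11.3% rose. The largest falls were in Cdc6, Rrm2, Rfc4, Fen1 and Mcm2, by 44.5%, 39.9%, 34.8%, 30.9% and 29% in that order. The median log2 fold change of the 40 was -0.33, against -0.004 over all genes, and 35 of the 40 had a negative sign. In 24 of the 40 every mutant sample lay below every wild-type sample, which held for 21.9% of all genes, and Cdt1 was the 1 gene of the 40 with every mutant sample above, which held for 19.7% of all genes. Cdt1 and the other 4 with a positive sign (Mcm10, Gins4, Rfc2 and Chaf1b) were not called, and their sign turned negative when libraries were scaled by total counts.

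**Figure D1:**
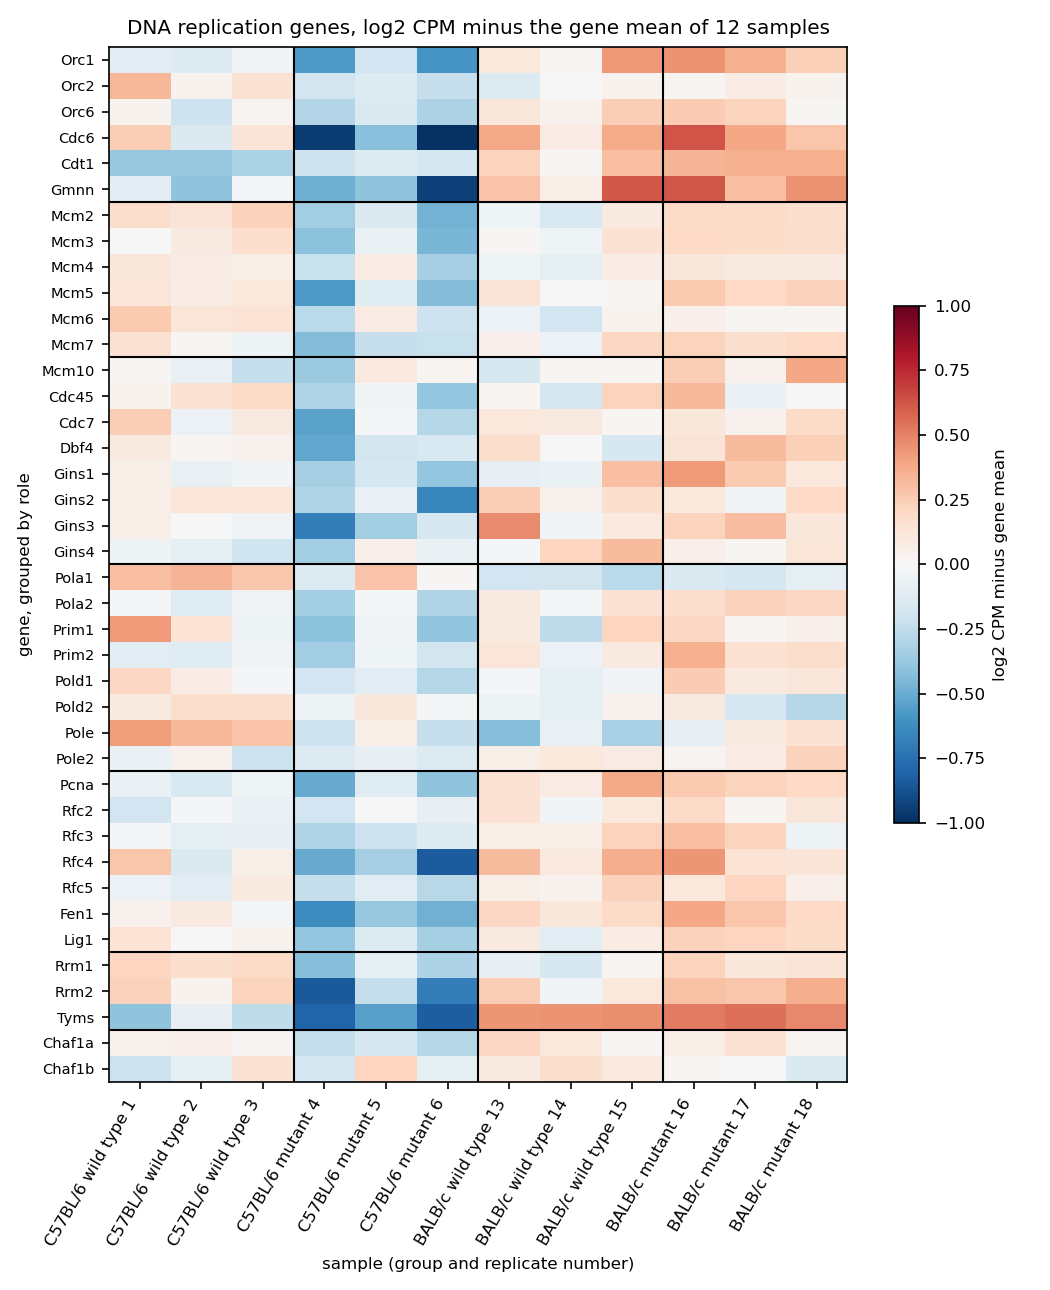
Heat map of log2 CPM minus each gene's mean over the 12 samples (colour, log2 units) for the 40 genes (rows, grouped by role and separated by lines) in every sample (columns). C57BL/6 mutants 4 and 6 are blue in nearly every row, with 0 and 2 of the 40 genes above their own mean, mutant 5 is paler with 9, and the BALB/c mutants are mostly red with 35 to 38.

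The 3 C57BL/6 mutant samples were not alike. The median of the 40 genes, each centred on its own mean, was -0.34 in sample 4, -0.12 in sample 5 and -0.29 in sample 6, while the C57BL/6 wild-type samples lay between 0.01 and 0.06. Without mutant sample 6 the number called fell to 10, without wild-type sample 1 to 12, and without mutant sample 4 to 16, whereas without mutant sample 5 it was 24. The falls of Mcm2, Mcm5, Orc2, Cdc6, Fen1, Lig1, Rrm1, Rrm2 and Tyms were called in each of the 12 fits that left out 1 sample. Those of Mcm3, Mcm7, Pole and Chaf1a were called in 11 of the 12, of Pold1 and Rfc4 in 10, of Mcm6 in 9, of Gins2 in 8, of Prim1 in 4, and of Cdc7 and Dbf4 in 2. Scaling by total counts moved the median of all genes by -0.20 and gave 616 genes higher and 4064 lower in place of 1835 and 2032, with 34 of the 40 called lower; relative to all genes, the median of the 40 was then -0.33, as before. With the level of Y-linked genes as a covariate, 16 of the 40 were called lower, and the calls of Mcm6, Cdc7, Dbf4 and Prim1 were lost. In a fit of only the 6 C57BL/6 samples the calls of Tyms, Mcm3, Mcm6, Cdc7, Dbf4, Gins2, Prim1, Pold1 and Rfc4 were lost.

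In BALB/c, none of the 40 genes passed the test between mutants and wild type. Across all genes 0.136% did (22 of 16190). The median of the 40 was 0.11, 34 had a positive sign, and 6 were higher at an unadjusted p under 0.05, where 7.11% of all genes were: Mcm2, Cdt1, Pold1, Pole, Lig1 and Rrm1. DESeq2 and limma-voom also called 0, each with 7 of the 40 higher at an unadjusted p under 0.05; with edgeR this number was 2 without BALB/c wild type 14, 12 without C57BL/6 mutant 5 and 11 in a fit of only the 6 BALB/c samples. In 14 of the 40 every mutant sample lay above every wild-type sample, against 9.93% of all genes, and in 1 gene, Chaf1b, every mutant sample lay below, which held for 10% of all genes. A miss of the threshold does not show that the genotypes are alike in BALB/c: the 95% interval of the log2 fold change of Mcm2 ran from 0.04 to 0.39 and that of Rfc4 from -0.34 to 0.30.

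The genotype effect differed between the strains for 14 of the 40, always with the BALB/c effect above the C57BL/6 effect, against 5.46% of all genes in that direction (edgeR interaction test, adjusted p under 0.05). These were Mcm2, Mcm3, Mcm5, Mcm7, Orc2, Cdc6, Dbf4, Pold1, Pole, Fen1, Lig1, Rrm1, Rrm2 and Tyms. The median difference was 0.41, against 0.01 over all genes. The 2 effects share no sample, but the difference contains both, so it is not evidence apart from the falls in C57BL/6. Without C57BL/6 mutant 6, or without BALB/c mutant 16, 9 were called. With the level of Y-linked genes as a covariate 10 of the 14 were called, without Mcm3, Mcm7, Orc2 and Dbf4. Total-count scaling gave 23 of the 40 and turned the split of all genes from 884 positive and 742 negative to 1672 and 175.

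**Figure D2:**
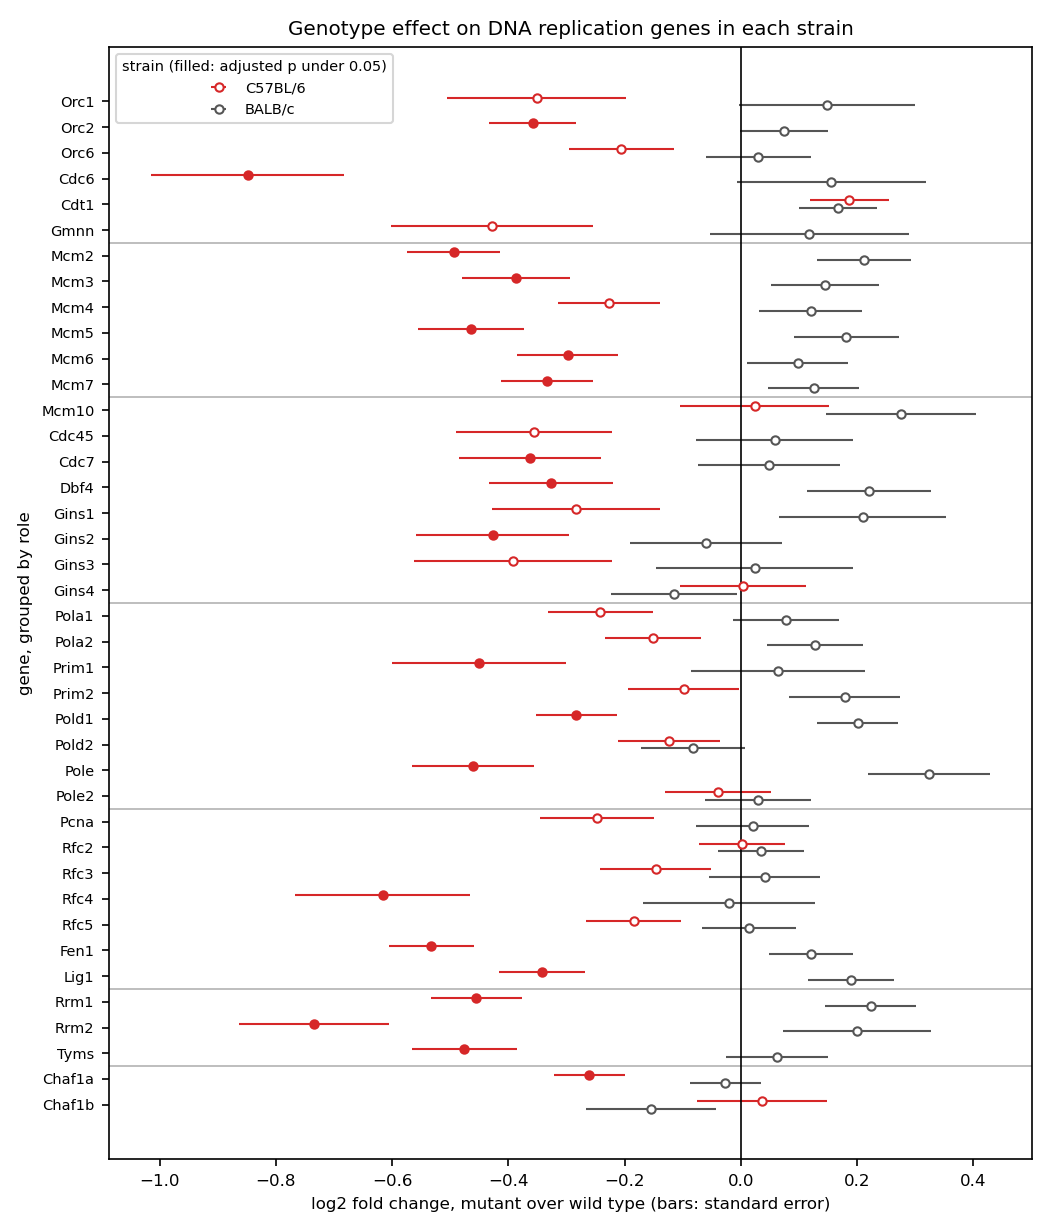
Log2 fold change, mutant over wild type, of each of the 40 genes (rows, grouped by role) in C57BL/6 (red) and BALB/c (grey), with the standard error as bars and filled points for adjusted p under 0.05. The 20 filled points are all red and left of 0, and no grey point is filled.

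Promoter letters are shown because 20 of the 40 genes fell together in C57BL/6 mutants and because several are textbook targets of E2F factors, which drive S phase transcription. RefSeq promoter entries (GRCm38.p6) matched 32 of the 40; Mcm4, Gmnn, Gins1, Gins2, Gins4, Prim2, Pole and Rfc2 had none. The 250 bases before each start were searched on both strands for the E2F words TTTCCCGC, TTTGGCGC, TTTCGCGC and TTTGCCGC. At least 1 word stood in 8 of the 32 (25%), namely Mcm5, Mcm6, Mcm7, Orc1, Cdc6, Gins3, Pola1 and Rfc3, against 1.86% of all 32851 promoters. A stretch that ends 1 base before the start is printed 5′ to 3′ on the gene's strand, with E2F words in capitals, for 4 genes that hold one and for 3 that hold none. The Mcm5 stretch lies at chr8:75109344-75109508 on the plus strand, Mcm6 at chr1:128359706-128359870 on the minus strand, Cdc6 at chr11:98907986-98908150 on the plus strand and Pola1 at chrX:93632156-93632320 on the minus strand. That of Mcm2 lies at chr6:88898781-88898945 on the minus strand, Rrm1 at chr7:102441530-102441694 on the plus strand and Cdt1 at chr8:122567850-122568014 on the plus strand. All 7 stretches lie outside annotated exons, and that of Cdc6 lies inside the gene as the authors' table spans it, after an alternative first exon.
Mcm5: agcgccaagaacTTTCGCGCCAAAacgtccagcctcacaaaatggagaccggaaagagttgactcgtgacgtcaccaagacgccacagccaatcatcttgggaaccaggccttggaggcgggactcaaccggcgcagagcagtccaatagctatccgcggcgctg
Mcm6: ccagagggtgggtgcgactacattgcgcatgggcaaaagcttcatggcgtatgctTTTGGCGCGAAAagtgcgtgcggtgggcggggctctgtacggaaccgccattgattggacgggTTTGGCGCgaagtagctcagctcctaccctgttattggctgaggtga
Cdc6: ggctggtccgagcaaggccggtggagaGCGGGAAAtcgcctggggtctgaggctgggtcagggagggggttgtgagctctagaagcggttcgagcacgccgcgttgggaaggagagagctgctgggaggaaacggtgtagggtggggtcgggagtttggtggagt
Pola1: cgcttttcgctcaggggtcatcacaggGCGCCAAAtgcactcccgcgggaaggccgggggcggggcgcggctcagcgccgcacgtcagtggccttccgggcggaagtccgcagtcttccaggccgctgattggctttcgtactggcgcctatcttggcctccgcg
Mcm2: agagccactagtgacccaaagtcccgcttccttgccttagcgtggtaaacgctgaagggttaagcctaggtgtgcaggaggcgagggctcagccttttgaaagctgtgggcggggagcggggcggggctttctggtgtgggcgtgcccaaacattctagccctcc
Rrm1: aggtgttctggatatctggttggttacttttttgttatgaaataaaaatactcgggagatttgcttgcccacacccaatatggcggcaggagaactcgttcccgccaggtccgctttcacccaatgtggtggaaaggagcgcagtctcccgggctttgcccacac
Cdt1: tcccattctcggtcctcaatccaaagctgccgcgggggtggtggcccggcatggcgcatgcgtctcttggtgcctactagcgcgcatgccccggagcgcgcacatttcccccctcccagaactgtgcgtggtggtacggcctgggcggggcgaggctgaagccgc
In Mcm5 a pair of words on opposite strands overlap, starting 153 and 149 bases before the start. In Mcm6 such a pair starts at 110 and 106 bases, with a further word at 47 bases. Cdc6 and Pola1 each hold a single word, on the opposite strand, 138 bases before the start. Genes that fell in C57BL/6 mutants were found with and without a word: of the 8 genes with a word 4 fell, and of the 24 without one 14 fell. The CCAAT box, searched as CCAAT on both strands, stood in 18 of the 32 (56.2%, against 33.8% of all promoters), and TTTGAA, the core of the cell cycle homology region, in 3 (9.38% against 16%). No CCAAT or TTTGAA match in these promoters overlapped an E2F word. A match is only a run of letters, and a missing word says only that these letters are not in this window.

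Origin licensing genes held both ends of the range of genotype effects in C57BL/6. Cdc6, the ATPase that helps Orc load the helicase, had the largest fall of the 40 in C57BL/6, while Cdt1, its loading partner, had a positive value. Gene positions are those of the authors' table (mm10). Cdc6 (chr11:98907889-98923942) stood at 14.5, 11.02 and 13.3 CPM in C57BL/6 wild type and at 6.33, 9.12 and 6.14 CPM in C57BL/6 mutants. In BALB/c, Cdc6 was at 15.8, 12.9 and 15.8 CPM in wild type and at 18.9, 15.97 and 14.8 CPM in mutants. All 3 C57BL/6 mutants lay below all wild types, and the BALB/c groups overlapped. Cdc6 had a log2 fold change of -0.85 ± 0.17 in C57BL/6 (SE, n = 3 and 3; adjusted p = 0.00519, edgeR) and 0.16 ± 0.16 in BALB/c (adjusted p = 0.779). The Cdc6 interaction was 1.00 ± 0.23 (edgeR, adjusted p = 0.0237). Cdt1 followed another pattern, with a step between strains. Cdt1 (chr8:122568015-122573130) stood at 23.8, 23.8 and 24.9 CPM in C57BL/6 wild type and at 26.8, 28.3 and 27.4 CPM in C57BL/6 mutants. In BALB/c, Cdt1 was at 36.1, 31.2 and 38.1 CPM in wild type and at 39.2, 39.6 and 39.6 CPM in mutants. Mutants lay above wild types in both strains without overlap, by 13.8% in C57BL/6 and 12.3% in BALB/c, but neither difference passed the test (edgeR, adjusted p = 0.0647 and 0.36). Averaged over both strains, Cdt1 was the 1 gene of the 40 called higher in mutants, at 0.18 ± 0.05 (edgeR, adjusted p = 0.0437), where 4.71% of all genes were; that call was made in 3 of the 12 fits that left out 1 sample and was lost with the Y-linked covariate and with total-count scaling, under which the C57BL/6 value was -0.01.

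Orc2, a subunit of the origin recognition complex, was the other licensing gene called in C57BL/6. Orc2 (chr1:58462771-58504919) stood at 29.98, 24.4 and 26.3 CPM in C57BL/6 wild type and at 21.01, 21.7 and 20.3 CPM in C57BL/6 mutants. In BALB/c, Orc2 was at 21.7, 23.8 and 24.4 CPM in wild type and at 24.2, 25.01 and 24.4 CPM in mutants. Its C57BL/6 ranges did not overlap and its BALB/c ranges did. Orc2 had a log2 fold change of -0.36 ± 0.08 in C57BL/6 (SE, n = 3 and 3; adjusted p = 0.00701, edgeR) and 0.07 ± 0.08 in BALB/c (adjusted p = 0.77). The Orc2 interaction was 0.43 ± 0.11 (edgeR, adjusted p = 0.0299). Part of this count is uncertain, since 29.8% of the Orc2 exon bases overlap Nif3l1 on the other strand. The strand setting of the counting is not given in the sources used here. Exon bases here and below are those of all transcripts of a gene in the GENCODE annotation. The authors' annotation is not given, so the overlapped share of the bases they counted is not known. Orc1, Orc6 and Gmnn had negative values in C57BL/6, from -0.43 for Gmnn to -0.21 for Orc6, and none was called (edgeR, adjusted p from 0.0916 to 0.113). Gmnn, the inhibitor of Cdt1, was at 9.872, 8.009 and 10.51 CPM in C57BL/6 wild type and at 7.546, 8.003 and 5.55 CPM in mutants, so that the ranges all but touched.

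The MCM2-7 helicase, the ring that unwinds DNA at the fork, was lower in C57BL/6 mutants in most of its subunits. All 6 had log2 fold changes from -0.49 to -0.23, and 5 of the 6 fell, all but Mcm4 (-0.23, edgeR, adjusted p = 0.0802). Mcm2 (chr6:88883474-88898780) stood at 69.2, 66.8 and 71.6 CPM in C57BL/6 wild type and at 48.1, 55.2 and 44.02 CPM in C57BL/6 mutants. In BALB/c, Mcm2 was at 59.5, 54.96 and 65.1 CPM in wild type and at 69.9, 69.3 and 68.8 CPM in mutants. The C57BL/6 mutants lay below the wild types, and the BALB/c mutants above theirs. Mcm2 had a log2 fold change of -0.49 ± 0.08 in C57BL/6 (SE, n = 3 and 3; adjusted p = 0.00199, edgeR) and 0.21 ± 0.08 in BALB/c (adjusted p = 0.332). The Mcm2 interaction was 0.71 ± 0.11 (edgeR, adjusted p = 0.00502). Mcm5 also had its mutants on opposite sides of wild type in the 2 strains. Mcm5 (chr8:75109528-75128439) stood at 67.2, 64.8 and 66.3 CPM in C57BL/6 wild type and at 41.5, 56.6 and 45.6 CPM in C57BL/6 mutants. In BALB/c, Mcm5 was at 67.5, 61.4 and 62.7 CPM in wild type and at 73.9, 70.9 and 72.5 CPM in mutants. In both strains its ranges were apart, with the mutants lower in C57BL/6 and higher in BALB/c. Mcm5 had a log2 fold change of -0.46 ± 0.09 in C57BL/6 (SE, n = 3 and 3; adjusted p = 0.00519, edgeR) and 0.18 ± 0.09 in BALB/c (adjusted p = 0.475). The Mcm5 interaction was 0.65 ± 0.13 (edgeR, adjusted p = 0.0129).

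Mcm7 was the most abundant subunit per length. Mcm7 (chr5:138164589-138171862) stood at 77.3, 70.2 and 67.3 CPM in C57BL/6 wild type and at 51.5, 59.2 and 59.7 CPM in C57BL/6 mutants. In BALB/c, Mcm7 was at 71.97, 66.7 and 80.1 CPM in wild type and at 81.3, 77.7 and 79.7 CPM in mutants. The C57BL/6 ranges were apart and the BALB/c ranges overlapped. Mcm7 had a log2 fold change of -0.33 ± 0.08 in C57BL/6 (SE, n = 3 and 3; adjusted p = 0.0121, edgeR) and 0.12 ± 0.08 in BALB/c (adjusted p = 0.601). The Mcm7 interaction was 0.46 ± 0.11 (edgeR, adjusted p = 0.0292). Other genes, among them Cops6 and the microRNA genes Mir25 and Mir93, overlap 12.6% of the Mcm7 exon bases. Mcm3 and Mcm6 fell by 0.39 and 0.30 on the log2 scale in C57BL/6 (edgeR, adjusted p = 0.0128 and 0.0291). In BALB/c all 6 subunits had positive values, from 0.10 for Mcm6 to 0.21 for Mcm2, and 0 of the 6 were called. Mutant sample 5 had the highest value of the C57BL/6 mutants in Mcm2, Mcm3, Mcm4, Mcm5 and Mcm6.

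Among origin firing genes, 3 of 8 fell in C57BL/6: Cdc7, Dbf4 and Gins2. Cdc7 is the kinase and Dbf4 the regulatory subunit that activates it. Dbf4 (chr5:8396969-8422716) stood at 19.7, 18.7 and 19.03 CPM in C57BL/6 wild type and at 12.9, 16.3 and 16.6 CPM in C57BL/6 mutants. In BALB/c, Dbf4 was at 20.9, 18.5 and 16.6 CPM in wild type and at 20.3, 23.03 and 21.8 CPM in mutants. In C57BL/6 the ranges were apart; in BALB/c they overlapped. Dbf4 had a log2 fold change of -0.33 ± 0.11 in C57BL/6 (SE, n = 3 and 3; adjusted p = 0.0446, edgeR) and 0.22 ± 0.11 in BALB/c (adjusted p = 0.461). The Dbf4 interaction was 0.55 ± 0.15 (edgeR, adjusted p = 0.0426). Both Dbf4 calls, in C57BL/6 and in the interaction, were made in 2 of the 12 fits that left out 1 sample. Cdc7 stood at the threshold with a log2 fold change of -0.36 ± 0.12 (edgeR, adjusted p = 0.04997), and it too was called in 2 of those 12 fits.

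The GINS complex, which joins Cdc45 and the helicase, was mixed. Gins2 (chr8:120581266-120589075) stood at 11.02, 11.4 and 11.5 CPM in C57BL/6 wild type and at 8.54, 9.99 and 6.68 CPM in C57BL/6 mutants. In BALB/c, Gins2 was at 12.5, 10.9 and 11.8 CPM in wild type and at 11.3, 10.3 and 12.1 CPM in mutants. Gins2 mutants lay below wild types in C57BL/6, and the BALB/c groups overlapped. Gins2 had a log2 fold change of -0.43 ± 0.13 in C57BL/6 (SE, n = 3 and 3; adjusted p = 0.035, edgeR) and -0.06 ± 0.13 in BALB/c (adjusted p = 0.918). The Gins2 interaction was 0.37 ± 0.18 (edgeR, adjusted p = 0.207). Over 67.3% of its exon bases Gins2 overlaps Gse1, so its counts are uncertain without the strand setting. Those exon bases number 4097, against an authors' coding length of 1038, so the overlap among counted bases is not known. Gins4, the most abundant of the 8 per length, was not called in either strain. Gins4 (chr8:23226610-23237668) stood at 14.6, 14.1 and 13.1 CPM in C57BL/6 wild type and at 11.9, 15.6 and 14.4 CPM in C57BL/6 mutants. In BALB/c, Gins4 was at 14.9, 17.5 and 18.7 CPM in wild type and at 15.6, 15.3 and 16.3 CPM in mutants. The groups overlapped in C57BL/6 and in BALB/c. Gins4 had a log2 fold change of 0.00 ± 0.11 in C57BL/6 (SE, n = 3 and 3; adjusted p = 0.989, edgeR) and -0.12 ± 0.11 in BALB/c (adjusted p = 0.751). The Gins4 interaction was -0.12 ± 0.15 (edgeR, adjusted p = 0.643). Gins1, Gins3 and Cdc45 had values from -0.39 to -0.28 in C57BL/6 and were not called (edgeR, adjusted p from 0.0734 to 0.169). Mcm10, a firing factor despite its name, was at 0.02 in C57BL/6 (edgeR, adjusted p = 0.913) and 0.28 in BALB/c (adjusted p = 0.437).

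Among polymerase genes 3 of 8 fell in C57BL/6. Pole, the catalytic subunit of the leading strand polymerase, Pold1, that of the lagging strand polymerase, and Prim1, the catalytic primase, were called, and the other 5 were not. Pole (chr5:110286319-110337453) stood at 29.3, 27.5 and 26.8 CPM in C57BL/6 wild type and at 18.98, 22.99 and 18.8 CPM in C57BL/6 mutants. In BALB/c, Pole was at 16.4, 20.9 and 17.5 CPM in wild type and at 20.8, 23.4 and 24.4 CPM in mutants. Pole was lower in C57BL/6 mutants without overlap, and 2 of the BALB/c wild types were the lowest of all 12 samples; the BALB/c groups overlapped slightly. Pole had a log2 fold change of -0.46 ± 0.10 in C57BL/6 (SE, n = 3 and 3; adjusted p = 0.00997, edgeR) and 0.32 ± 0.11 in BALB/c (adjusted p = 0.257). The Pole interaction was 0.78 ± 0.15 (edgeR, adjusted p = 0.0105). Pold1 had a smaller step with apart ranges in both strains. Pold1 (chr7:44532744-44548815) stood at 45.9, 41.9 and 39.6 CPM in C57BL/6 wild type and at 34.9, 37.05 and 32.8 CPM in C57BL/6 mutants. In BALB/c, Pold1 was at 39.2, 37.4 and 39 CPM in wild type and at 47.5, 42.4 and 43.1 CPM in mutants. The C57BL/6 mutants were the lower group and the BALB/c mutants the higher. Pold1 had a log2 fold change of -0.28 ± 0.07 in C57BL/6 (SE, n = 3 and 3; adjusted p = 0.0148, edgeR) and 0.20 ± 0.07 in BALB/c (adjusted p = 0.292). The Pold1 interaction was 0.48 ± 0.10 (edgeR, adjusted p = 0.0144).

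Pold2, the accessory subunit of the same polymerase and the most abundant of the 8 per length, was not called in either strain. Pold2 (chr11:5872180-5878256) stood at 24.1, 25.5 and 25.2 CPM in C57BL/6 wild type and at 21.9, 24.4 and 22.3 CPM in C57BL/6 mutants. In BALB/c, Pold2 was at 21.9, 21.1 and 23.3 CPM in wild type and at 24.04, 20.1 and 18.6 CPM in mutants. The genotypes overlapped in both strains. Pold2 had a log2 fold change of -0.12 ± 0.09 in C57BL/6 (SE, n = 3 and 3; adjusted p = 0.323, edgeR) and -0.08 ± 0.09 in BALB/c (adjusted p = 0.789). The Pold2 interaction was 0.04 ± 0.13 (edgeR, adjusted p = 0.859). Prim1 fell by 0.45 on the log2 scale in C57BL/6 (edgeR, adjusted p = 0.0466). Pole2, the partner of Pole, was at -0.04 (edgeR, adjusted p = 0.792), and Pola1, Pola2 and Prim2 lay from -0.24 to -0.10 with adjusted p from 0.0695 to 0.479.

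Of the clamp, loader and Okazaki maturation genes, 3 of 7 fell in C57BL/6: Fen1, Lig1 and Rfc4. Fen1 is the nuclease that trims Okazaki fragments and Lig1 the ligase that seals them. Fen1 (chr19:10199139-10203943) stood at 24, 24.8 and 23.2 CPM in C57BL/6 wild type and at 15.1, 17.99 and 16.7 CPM in C57BL/6 mutants. In BALB/c, Fen1 was at 26.97, 25.2 and 26.6 CPM in wild type and at 30.5, 28.2 and 26.9 CPM in mutants. Fen1 was lower in all 3 C57BL/6 mutants, and the BALB/c groups overlapped by a little. Fen1 had a log2 fold change of -0.53 ± 0.07 in C57BL/6 (SE, n = 3 and 3; adjusted p = 0.000877, edgeR) and 0.12 ± 0.07 in BALB/c (adjusted p = 0.58). The Fen1 interaction was 0.65 ± 0.10 (edgeR, adjusted p = 0.00458). It had the smallest adjusted p of the 40 in C57BL/6 and was also the 1 gene called lower when both strains were averaged (-0.21 ± 0.05, edgeR, adjusted p = 0.0326), where 3.28% of all genes were; that average was called in 5 of the 12 fits that left out 1 sample and was not called with the Y-linked covariate. However, 84.2% of the Fen1 exon bases overlap Tmem258 or Gm10143, so reads could be shared with them.

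Lig1 had mutants on opposite sides of wild type in the 2 strains. Lig1 (chr7:13277313-13311427) stood at 62.6, 57.03 and 58.2 CPM in C57BL/6 wild type and at 43.4, 51.6 and 45.3 CPM in C57BL/6 mutants. In BALB/c, Lig1 was at 60.5, 52.5 and 59.9 CPM in wild type and at 66.5, 66.1 and 64.4 CPM in mutants. Its ranges were apart in both strains, with the mutants lower in C57BL/6 and higher in BALB/c. Lig1 had a log2 fold change of -0.34 ± 0.07 in C57BL/6 (SE, n = 3 and 3; adjusted p = 0.00843, edgeR) and 0.19 ± 0.07 in BALB/c (adjusted p = 0.345). The Lig1 interaction was 0.53 ± 0.11 (edgeR, adjusted p = 0.0127). Pcna, the clamp on which both enzymes work, was not called in either strain. Pcna (chr2:132249286-132253180) stood at 105, 98.8 and 106 CPM in C57BL/6 wild type and at 77.4, 101 and 82.9 CPM in C57BL/6 mutants. In BALB/c, Pcna was at 122, 116 and 143 CPM in wild type and at 132, 128 and 126 CPM in mutants. In C57BL/6, mutant 5 reached into the wild-type range, and in BALB/c the mutants lay within it. Pcna had a log2 fold change of -0.25 ± 0.10 in C57BL/6 (SE, n = 3 and 3; adjusted p = 0.0825, edgeR) and 0.02 ± 0.10 in BALB/c (adjusted p = 0.973). The Pcna interaction was 0.27 ± 0.14 (edgeR, adjusted p = 0.216). Of all 50-base words in Pcna transcripts, 19.1% also occur in transcripts of other genes, so some of its reads may be split. Rfc4 fell by 0.62 on the log2 scale (edgeR, adjusted p = 0.0139), while the loader subunits Rfc2, Rfc3 and Rfc5 were at 0.00, -0.15 and -0.18 and were not called (adjusted p from 0.115 to 0.986).

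The 3 nucleotide supply genes all fell in C57BL/6. Rrm1 and Rrm2 are the large and small subunits of ribonucleotide reductase, which makes deoxynucleotides, and Tyms makes thymidylate. Rrm2 (chr12:24708254-24714146) stood at 67.3, 58.8 and 67.01 CPM in C57BL/6 wild type and at 31.9, 48.6 and 35.6 CPM in C57BL/6 mutants. In BALB/c, Rrm2 was at 68.1, 56.3 and 61.7 CPM in wild type and at 70.2, 69.6 and 73.8 CPM in mutants. Mutants were below wild types in C57BL/6, with sample 5 the nearest to them, and above in BALB/c. Rrm2 had a log2 fold change of -0.73 ± 0.13 in C57BL/6 (SE, n = 3 and 3; adjusted p = 0.00295, edgeR) and 0.20 ± 0.13 in BALB/c (adjusted p = 0.606). The Rrm2 interaction was 0.93 ± 0.18 (edgeR, adjusted p = 0.0116). Rrm1 had a smaller fall. Rrm1 (chr7:102441695-102469771) stood at 85.8, 82.9 and 84.5 CPM in C57BL/6 wild type and at 55.3, 69.7 and 59.8 CPM in C57BL/6 mutants. In BALB/c, Rrm1 was at 70.02, 66.5 and 75.7 CPM in wild type and at 86.6, 80.2 and 80.8 CPM in mutants. Neither strain's ranges overlapped. Rrm1 had a log2 fold change of -0.45 ± 0.08 in C57BL/6 (SE, n = 3 and 3; adjusted p = 0.0027, edgeR) and 0.22 ± 0.08 in BALB/c (adjusted p = 0.294). The Rrm1 interaction was 0.68 ± 0.11 (edgeR, adjusted p = 0.00555). Tyms fell by 0.48 on the log2 scale in C57BL/6 (edgeR, adjusted p = 0.00448), and its interaction was 0.54 ± 0.13 (adjusted p = 0.0248).

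Chaf1a and Chaf1b encode the large and middle subunits of the chromatin assembly factor that places histones behind the fork, and 1 of them was called in C57BL/6. Chaf1a (chr17:56040416-56068026) stood at 35.5, 35.8 and 34.9 CPM in C57BL/6 wild type and at 29.3, 30.99 and 28.3 CPM in C57BL/6 mutants. In BALB/c, Chaf1a was at 39.8, 37.2 and 34.8 CPM in wild type and at 36.2, 38.3 and 35.3 CPM in mutants. Chaf1a was lower in all C57BL/6 mutants and overlapped in BALB/c. Chaf1a had a log2 fold change of -0.26 ± 0.06 in C57BL/6 (SE, n = 3 and 3; adjusted p = 0.0117, edgeR) and -0.03 ± 0.06 in BALB/c (adjusted p = 0.922). The Chaf1a interaction was 0.23 ± 0.09 (edgeR, adjusted p = 0.1). In its case 52.5% of exon bases overlap Ubxn6. Those exon bases number 8854, against an authors' coding length of 3308, so the overlap among counted bases is not known. Chaf1b (chr16:93883901-93906106) stood at 15.5, 16.8 and 19.9 CPM in C57BL/6 wild type and at 15.9, 20.8 and 16.9 CPM in C57BL/6 mutants. In BALB/c, Chaf1b was at 19.1, 20.1 and 19.2 CPM in wild type and at 18.2, 17.9 and 16.3 CPM in mutants. Chaf1b overlapped in C57BL/6, and every BALB/c mutant lay below every BALB/c wild type. Chaf1b had a log2 fold change of 0.04 ± 0.11 in C57BL/6 (SE, n = 3 and 3; adjusted p = 0.84, edgeR) and -0.16 ± 0.11 in BALB/c (adjusted p = 0.657). The Chaf1b interaction was -0.19 ± 0.16 (edgeR, adjusted p = 0.447).

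**Figure D3:**
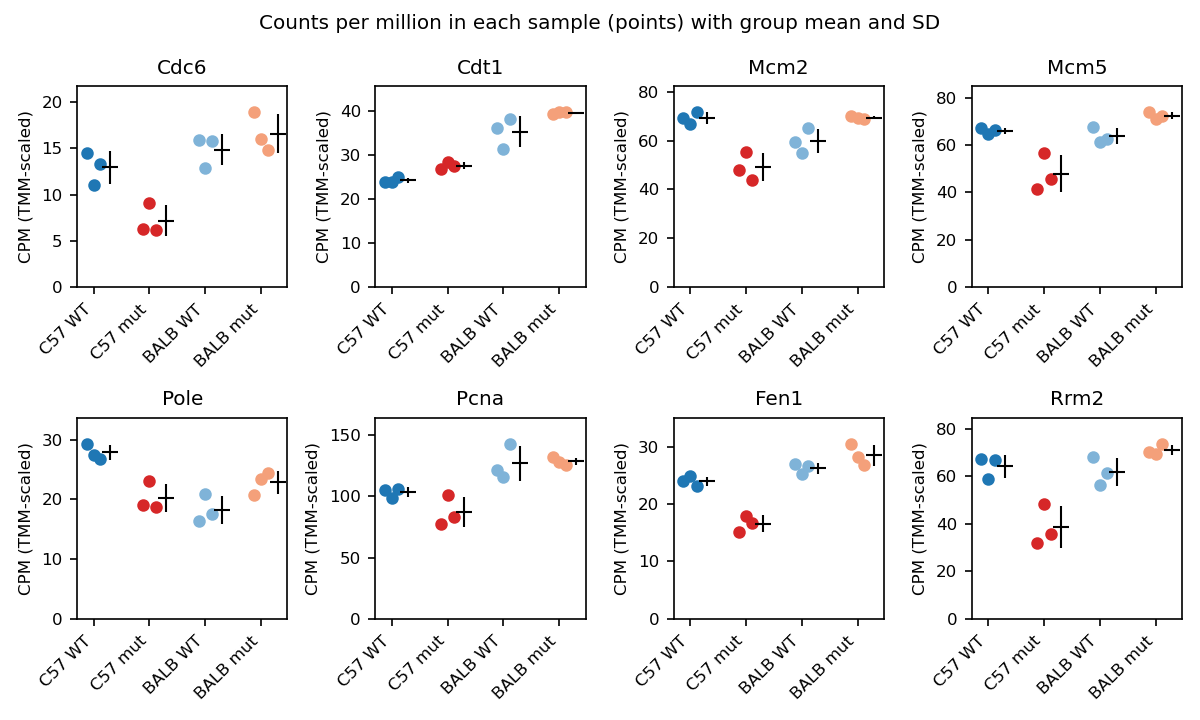
CPM of 8 of the 40 genes in each sample (points) with the group mean and SD (bars, n = 3), in C57BL/6 (C57) and BALB/c (BALB) wild type (WT) and mutant (mut) mice. Cdc6, Mcm2, Mcm5, Fen1 and Rrm2 are lowest in the C57BL/6 mutants, Cdt1 steps up between strains, Pole is low in both the BALB/c wild types and the C57BL/6 mutants, and 1 C57BL/6 mutant reaches the wild-type range in Pcna.

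Between the strains, wild types differed in both directions. Relative to C57BL/6, 5 of the 40 were higher in BALB/c wild type (22.8% of all genes were) and 6 were lower (25.6% of all genes were), with a median of 0.06. The higher genes were Tyms at 0.69, Cdt1 at 0.54, Gmnn at 0.51, Pcna at 0.30 and Gins4 at 0.29 on the log2 scale. The lower genes were Pole at -0.61, Pola1 at -0.52, Rrm1 at -0.26, Mcm6 at -0.24, Mcm2 at -0.21 and Orc2 at -0.21. Those of Tyms, Cdt1, Pole and Pola1 were called in each of the 12 fits that left out 1 sample (edgeR, adjusted p in the full fit = 0.00011, 9.46e-05, 0.000755 and 0.000818). Without C57BL/6 wild type 1, 6 of the 11 calls were made, and without C57BL/6 wild type 2 or 3, BALB/c wild type 13 or 14, or BALB/c mutant 18, 7 genes were called. With total-count scaling the median turned to -0.05, the calls of Gmnn, Pcna and Gins4 were lost, and the split of all genes went from 3698 higher and 4149 lower to 2221 and 4909. With the Y-linked covariate the calls of Rrm1, Mcm6, Mcm2 and Orc2 were lost, 4 of the 6 lower ones. The call of Gins4 was made in 3 of the 12 fits that left out 1 sample.

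Pola1, the catalytic subunit of the priming polymerase, and Tyms show the 2 directions. Pola1 (chrX:93304766-93632155) stood at 24.8, 25.5 and 24.3 CPM in C57BL/6 wild type and at 18.3, 24.5 and 20.3 CPM in C57BL/6 mutants. In BALB/c, Pola1 was at 17.6, 17.7 and 16.7 CPM in wild type and at 18.2, 17.8 and 18.9 CPM in mutants. All 6 BALB/c samples of Pola1 lay below all C57BL/6 wild types, and 1 C57BL/6 mutant lay within the BALB/c range. Tyms (chr5:30058200-30073625) stood at 15.4, 19.3 and 17.1 CPM in C57BL/6 wild type and at 11.8, 14.02 and 11.5 CPM in C57BL/6 mutants. In BALB/c, Tyms was at 27.7, 27.9 and 28.2 CPM in wild type and at 29.2, 29.9 and 28.4 CPM in mutants. All 6 BALB/c samples lay above all 6 C57BL/6 samples, while the C57BL/6 mutants were the lowest group.

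Between the mutants, 29 of the 40 were higher in BALB/c than in C57BL/6 and 0 were lower, where 18% of all genes were higher. The median log2 difference was 0.41, and the 3 highest values in the edgeR fit were those of Tyms (1.23 ± 0.09, edgeR, adjusted p = 2.17e-06), Cdc6 (1.20 ± 0.17, adjusted p = 0.000197) and Gmnn (1.05 ± 0.17, adjusted p = 0.000649). All 6 licensing genes, all 3 nucleotide supply genes and 5 of 6 helicase subunits were among the 29. This comparison uses the C57BL/6 mutant samples that also enter the genotype effect. Total-count scaling gave 34 of the 40, and 4039 genes higher and 1915 lower in place of 2914 and 3054.

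The authors' deposited table of comparisons gives q-values for all 40 genes. In the authors' deposited table, 22 of the 40 were lower in C57BL/6 mutants than in wild type at q under 0.05, and 0 were higher, where 13.8% of all its genes were lower and 11.5% higher. The 22 include Gmnn, Cdc45 and Pcna (DESeq2, q = 0.0325, 0.0455 and 0.0393), which the edgeR fit did not call. Gins2, called by edgeR, is not among the 22 (DESeq2, q = 0.0627). For BALB/c the authors' deposited table has 0 of the 40 in either direction, where 1.13% of all genes were higher and 0.294% lower, so a count of 0 is near the background. Between mutants, 33 of the 40 were lower in C57BL/6 than in BALB/c and 0 were higher in the authors' deposited table, where 17.8% of all genes were lower and 18.4% higher. Between wild types the authors' deposited table has 3 of the 40 higher in C57BL/6 and 6 lower, where 24.7% and 20.6% of all genes were. Tyms differs between the sources: in the authors' deposited table its log2 value, C57BL/6 over BALB/c, is -0.73 between mutants and -0.34 between wild types, against -1.23 and -0.69 in the edgeR fit. By the authors' deposited table Tyms thus stands below 6 of the 40 in size between mutants: Cdc6 (-1.14), Gmnn (-1.01), Rrm2 (-0.89), Orc1 (-0.83), Fen1 (-0.82) and Rfc4 (-0.79). For the other 39 genes the log2 values of the authors' deposited table and of the fit lay within 0.162 of each other in all 4 comparisons, and the cause of the Tyms gap was not tested.

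Neighbouring pathway genes were described from lists that do not include the 40. Of 46 other replication genes, 17 fell and 1 rose in C57BL/6 mutants, where 12.6% of all genes fell and 11.3% rose. The median of the 46 was -0.23, and 13 had a positive interaction, against 5.46% of all genes. Uhrf1, which brings the maintenance methyltransferase to new DNA, was at 68.5, 68.2 and 68.9 CPM in C57BL/6 wild type and 40.4, 47.3 and 40.7 CPM in mutants (edgeR, adjusted p = 0.000338). Dck, a salvage kinase for deoxycytidine, was at 26.3, 22.2 and 23.4 CPM and 11.7, 16.1 and 13.4 CPM (edgeR, adjusted p = 0.000565). In both genes the C57BL/6 mutants lay apart from and below the wild types. Pold4, the smallest polymerase delta subunit, rose from 10.9, 13.6 and 12.4 to 17.4, 15.2 and 15.8 CPM (0.40 ± 0.08, edgeR, adjusted p = 0.00773). Without C57BL/6 mutant 6, 9 of the 46 were called lower, without C57BL/6 wild type 1, 10 were, and with total-count scaling Pold4 was not called.

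Among 35 regulators of entry into S phase, 13 fell and 3 rose in C57BL/6 mutants, and the median was -0.16. Over all genes 12.6% fell and 11.3% rose, so the count of 3 that rose is near the background. E2f2, an activating E2F, was at 32.6, 25.1 and 30.3 CPM in C57BL/6 wild type and 11.3, 12.8 and 11.5 CPM in mutants, and at 42.4, 38.7 and 36.9 and 68.05, 52.1 and 58.5 CPM in BALB/c. Its change was -1.30 ± 0.12 in C57BL/6 (edgeR, adjusted p = 9.82e-05) and 0.60 ± 0.11 in BALB/c (adjusted p = 0.0676), with no overlap of the groups in either strain. Cyclin A2 (Ccna2), which acts with Cdk2 in S phase, fell by 0.70 on the log2 scale (edgeR, adjusted p = 0.000121). Those with the smallest p-values among the 3, the inhibitors Cdkn1a and Cdkn2b, rose by 0.30 and 0.94 in C57BL/6 (edgeR, adjusted p = 0.0261 and 0.00842). Both also had a negative interaction, at -0.52 and -1.20 (edgeR, adjusted p = 0.0244 and 0.0269), while 11 of the 35 had a positive one. Over all 16190 genes 742 were negative and 884 positive. With total-count scaling 15 of the 35 were positive and 0 negative. Without C57BL/6 wild type 1, 8 of the 35 fell and 1 rose, and 7 had a positive interaction. Without C57BL/6 mutant 5 or 6, 1 rose.

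All 30 mitosis genes fell in C57BL/6 mutants (median -0.62, against -0.33 for the 40 replication genes), where 12.6% of all genes fell. Of the 30, 27 had a positive interaction, against 5.46% of all genes. Without C57BL/6 wild type 1, 22 of the 30 were called lower. Without wild type 2, 29 were, and without wild type 3, 28 were. Plk1, the kinase that drives mitotic entry, was at 24.1, 23.7 and 22.1 CPM in C57BL/6 wild type and 13.9, 13.9 and 12.99 CPM in mutants, and at 22.6, 21.6 and 19.6 and 29.9, 29.2 and 29.5 CPM in BALB/c. It was the 1 gene of the list that also passed the test in BALB/c, where it rose by 0.48 ± 0.06 (edgeR, adjusted p = 0.0369); all 30 had a positive sign there. Mki67, the proliferation marker, ranged from 159 to 176 CPM in C57BL/6 wild type, 92.7 to 113 in C57BL/6 mutants, 120 to 147 in BALB/c wild type and 181 to 189 in BALB/c mutants. The difference between the lists was not tested.

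**Figure D4:**
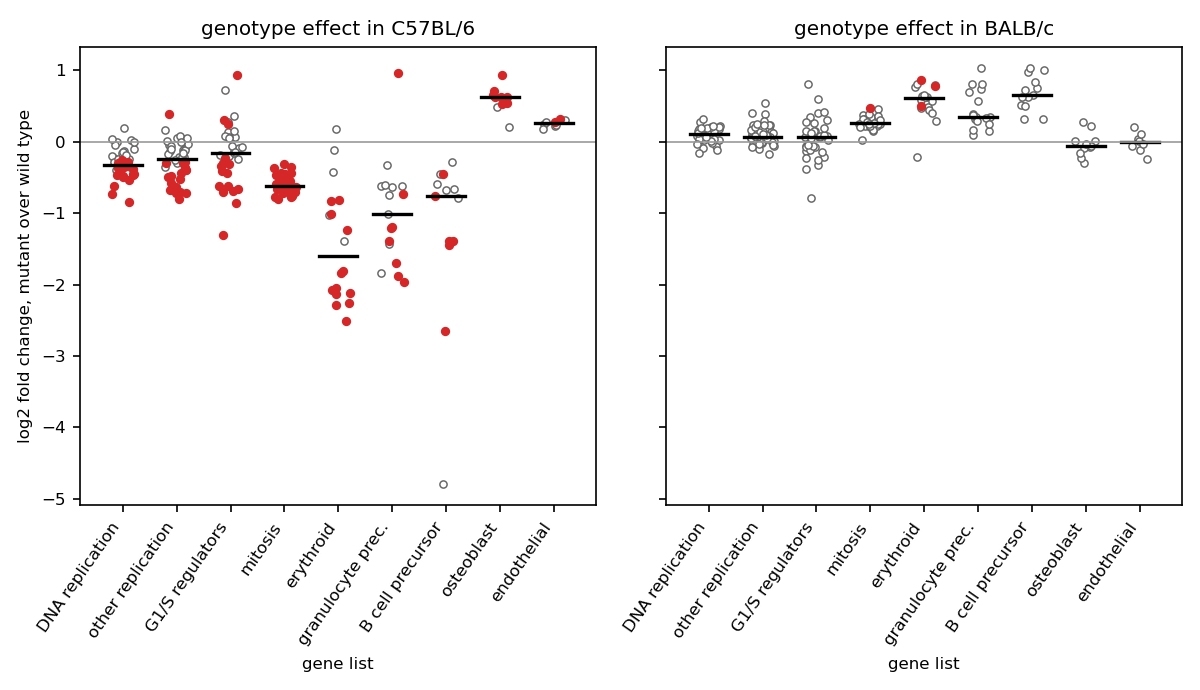
Log2 fold change, mutant over wild type, of every gene (points) of the 40 replication genes and 8 other lists in C57BL/6 (left) and BALB/c (right); red points have adjusted p under 0.05 and black lines are list medians. In C57BL/6 the medians of the replication, S phase entry, mitosis and blood cell lists lie below 0, from -0.16 to -1.60, and that of the osteoblast list lies above, at 0.62.

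Markers of red cell precursors were also lower in C57BL/6 mutants. Of 18 erythroid genes tested, 13 fell in C57BL/6 mutants (12.6% of all genes did). Of the 18, 3 rose in BALB/c mutants and 13 had a positive interaction (15 of 16190 and 5.46% over all genes). Their summed level ranged from 672 to 871 CPM in C57BL/6 wild type, 329 to 396 in C57BL/6 mutants, 1086 to 1473 in BALB/c wild type and 1774 to 2092 in BALB/c mutants, with 0 of the genes at 0 in a whole group. Ermap, a red cell membrane protein, stood at 25.2, 18.2 and 21.01 CPM in C57BL/6 wild type and 5.24, 7.23 and 5.87 CPM in mutants, and at 27.2, 27.2 and 28.99 and 49.6, 44.9 and 49.01 CPM in BALB/c. The defining genes Alas2 and Klf1 were also lowest in C57BL/6 mutants and highest in BALB/c mutants; Alas2, the first enzyme of heme synthesis in red cell precursors, ran from 35.4 to 55.6, 18.6 to 25.6, 49.8 to 79.8 and 93.1 to 114 CPM in those 4 groups. A large part of the erythroid sum was 1 globin gene, Hbb-bs (listed as Beta-s), which ran from 237 to 342, 112 to 126, 572 to 903 and 961 to 1175 CPM in those groups and fell in C57BL/6 mutants (edgeR, adjusted p = 0.000906). Without it the other 17 genes summed to 419 to 530, 213 to 269, 514 to 611 and 813 to 917 CPM, again lowest in C57BL/6 mutants and highest in BALB/c mutants, with the wild types of the 2 strains overlapping. Of the other globin genes in the table, Hba-a2 reached 5.28 CPM and the rest less. The part of erythroid cells in the replication result was not tested.

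Granulocyte and B cell precursor genes were called lower more often than higher in C57BL/6 mutants. Over all genes 12.6% were called lower there and 11.3% higher. In C57BL/6 mutants 7 of 17 granulocyte genes fell and 1 rose, Mmp9, which osteoclasts also make and which stood at 1347, 1618 and 1504 CPM in wild type and 2836, 2794 and 3090 CPM in mutants. With Mmp9, which makes up most of it, the list summed to 1802 to 1881 CPM in C57BL/6 wild type and to 3006 to 3226 in C57BL/6 mutants, and to 1950 to 2180 and 2295 to 2466 in BALB/c, so that its sum was higher in C57BL/6 mutants. Without Mmp9, a split made after its values were seen, it summed to 263 to 456 CPM in C57BL/6 wild type, 136 to 290 in C57BL/6 mutants, 624 to 744 in BALB/c wild type and 877 to 959 in BALB/c mutants. Mpo, a defining granulocyte gene, was at 36.5, 15.8 and 28.4 CPM in C57BL/6 wild type and 3.62, 9.603 and 8.89 in mutants. The 7 became 2 without C57BL/6 mutant 6, 3 without C57BL/6 wild type 1 and 14 without C57BL/6 mutant 5. Of 13 B cell precursor genes 6 fell, and the sums were 52.2 to 76.4, 35.5 to 45.7, 65.9 to 74.1 and 102 to 132 CPM in the same order of groups; without C57BL/6 wild type 1, 2 fell, and without C57BL/6 mutant 5, 3 fell. In these lists 0 to 2 genes were at 0 in a group, and their part in the result was not tested.

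Osteoblast genes moved the other way, with 9 of 11 higher in C57BL/6 mutants (median 0.62) and 0 of 11 called in BALB/c. Runx2, the osteoblast transcription factor, was at 304, 305 and 320.1 CPM in C57BL/6 wild type and 458, 493 and 508 CPM in mutants, with no overlap (0.65 ± 0.10, edgeR, adjusted p = 0.00161). Osteopontin (Spp1) rose by 0.94 ± 0.12 (edgeR, adjusted p = 0.000662). Of 11 chondrocyte genes 4 fell in C57BL/6 mutants, and their sum ranged from 8358 to 10040 CPM in wild type and from 3672 to 6430 CPM in mutants. Of 12 ciliated cell genes 8 fell (median -2.20), with Foxj1 between 5.84 and 14.3 CPM in wild type and 1.83 and 3.98 CPM in mutants. Without C57BL/6 mutant 4, 10 chondrocyte and 10 ciliated cell genes fell; without C57BL/6 wild type 1, mutant 5 or mutant 6, 2 and 3 did. Endothelial genes had 2 of 8 higher, 4 without C57BL/6 mutant 4, and 0 without mutant 5 or 6 or with total-count scaling. Olfactory genes had 1 of 9 higher and 2 lower, where over all genes 11.3% were higher and 12.6% lower. The count of 1 higher is near the background. The count lower changed with the samples used: 8 were lower without C57BL/6 mutant 4 and 0 without C57BL/6 wild type 1 or mutant 6. In the full fit the olfactory median was -2.58, and 8 of the 9 had a negative sign. Of 11 skeletal muscle genes 0 were called, with a median of -3.17 that was -0.99 without C57BL/6 wild type 2. That sample had 108 summed CPM of muscle genes against 14.6 and 8.47 in the other C57BL/6 wild types. In BALB/c, mutant 16 had 486 summed CPM of muscle genes against 17.3 and 44.1 in the other mutants, and mutant 17 had 9039 of chondrocyte genes against 4579 and 4360. The part of these cells in the replication result was not tested either.

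**Figure D5:**
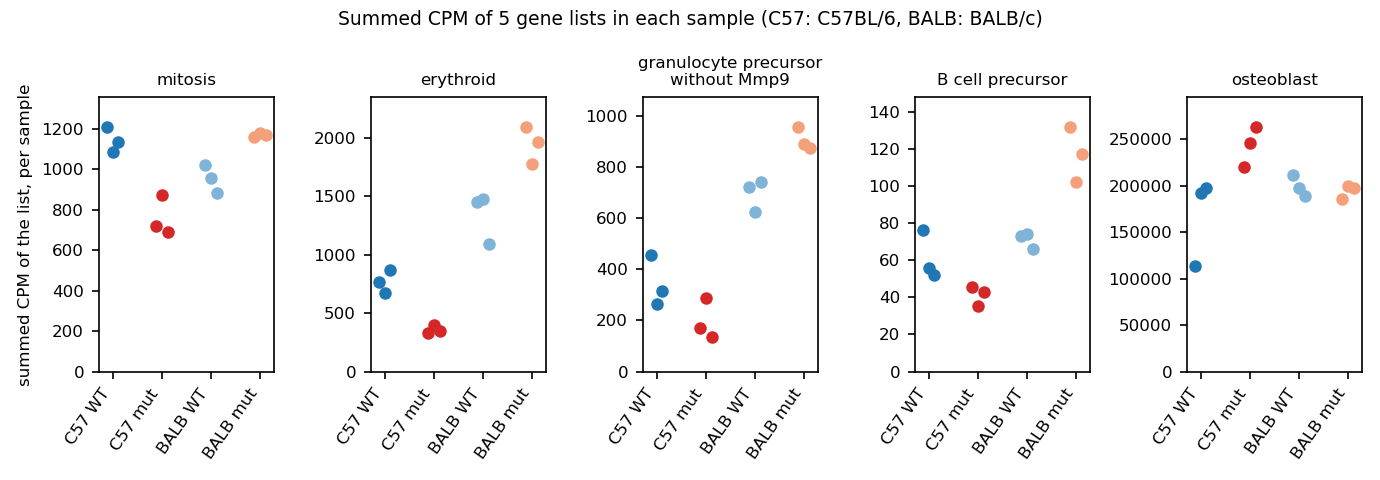
Summed CPM of 5 gene lists in each sample (points), by group (C57, C57BL/6; BALB, BALB/c; WT, wild type; mut, mutant). The granulocyte list is drawn without Mmp9, with which its sum is higher in the C57BL/6 mutants. Mitosis, erythroid and B cell sums lie lowest in the C57BL/6 mutants and highest in the BALB/c mutants, except that mitosis sums of C57BL/6 wild type reach as high; granulocyte sums have the same order but overlap in C57BL/6, and osteoblast sums are highest in the C57BL/6 mutants.

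Outside the 40, the genes whose log2 CPM over the 12 samples most resembled the mean of the 40 were Mybl2 (Pearson r = 0.98), Anp32e (0.98), Asf1b (0.97), Tacc3 (0.97) and Tk1 (0.97). These are descriptions over 12 samples that share groups, depth and scaling. Mybl2, a transcription factor of dividing cells, averaged 22.8 CPM in C57BL/6 wild type, 14.1 in C57BL/6 mutants, 24.9 in BALB/c wild type and 28.4 in BALB/c mutants. Tk1, the thymidine kinase of S phase, averaged 31.1, 23.8, 35.9 and 41.5 CPM in those groups. Within the 40, Cdc6 was the most like the mean of the other 39 (0.98), followed by Lig1 (0.97) and Mcm5 (0.97), and Pola1 (-0.20), Pold2 (-0.10), Pole (0.18) and Chaf1b (0.22) were the least like it. Pola1 and Pole were among the genes lower in BALB/c wild type.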

How the data were processed

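RNA from 12 frontal bone samples of postnatal day 3 mice was sequenced in 4 groups of 3. Per the submitters' processing notes, bcl2fastq, TopHat2 2.0.6, HTSeq and DESeq2 were used with genome build mm10; annotation and strand setting are not given in the sources used here. The authors deposited raw counts per gene, all of them even numbers, which is what counting both mates of a read pair gives; 26 identifiers stood on 69 rows and none was among the 40 genes. RPKM values were computed by the authors from coding length and a library total, and are used here only to rank levels between genes. The authors also deposited q-values (and p-values) with log2 ratios of group pairs, made with DESeq2 per the file headers.

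Counts were fitted in R 4.3.3 with edgeR 4.0.16 (TMM scaling, filterByExpr with a minimum count of 10, glmQLFit and glmQLFTest, two-sided) in 1 model of 4 group means over all 12 samples. A gene was called at a Benjamini-Hochberg adjusted p under 0.05 over 16190 genes. The 6 contrasts were genotype within each strain, strain within each genotype (BALB/c minus C57BL/6), the interaction (BALB/c effect minus C57BL/6 effect) and the average genotype effect. The scripts were tested on simulated data. Alternatives were DESeq2 1.42.0, limma-voom (limma 3.58.1), other scalings and filters, counts divided by 2, a Y-linked covariate, fits of only the 6 samples compared, and leaving out each sample.

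The 40 genes and all lists were chosen with earlier results of these data known, so no list was tested as a set. In each role group, the gene with the highest mean RPKM and the 2 with the smallest p in a genotype contrast are given sample by sample, and genes against their group are named; from other lists, up to 2 called genes per direction with the smallest p in C57BL/6 or the interaction, besides markers fixed as defining. Of the list genes, 9 were found under a RefSeq synonym and 4 were not found. Each of the 40 genes had 138 or more counts in every sample; counting error and the spread between samples were not separated. The values of 1 erythroid marker are not reported here.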

Additional observations from a re-analysis of the deposited data

Results flagged for a closer look

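For 14 of the 40 genes the genotype effect differed between the strains by a test of the difference itself (edgeR interaction, adjusted p under 0.05), which is why they are listed. The BALB/c effect exceeded the C57BL/6 effect by 1.00 (log2) for Cdc6, 0.93 for Rrm2, 0.78 for Pole, 0.71 for Mcm2 and 0.68 for Rrm1. For Fen1 the difference was 0.65, for Mcm5 0.65, for Dbf4 0.55, for Tyms 0.54, for Mcm3 0.53, for Lig1 0.53, for Pold1 0.48, for Mcm7 0.46 and for Orc2 0.43. The interactions of Mcm2, Mcm5, Pold1, Pole, Fen1, Lig1, Rrm1 and Rrm2 were called in each of the 12 fits that left out 1 sample, those of Cdc6 and Tyms in 9 of the 12, that of Mcm7 in 7, those of Mcm3 and Orc2 in 6, and that of Dbf4 in 2. With the level of Y-linked genes as a covariate those of Mcm3, Mcm7, Orc2 and Dbf4 were not called, and the other 10 were. Strain and flow cell cannot be told apart in these differences.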

How the results depend on the processing

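No paired analysis was possible because the groups share no replicate numbers. With total-count scaling, 34 of the 40 genes were called in C57BL/6 (20 with TMM) and 23 in the interaction (14), and the medians were -0.53 in C57BL/6, 0.65 in the interaction, 0.53 between mutants, -0.18 for the averaged effect and -0.0542 between wild types, the last a reversed sign; the median of all genes moved as well. Fitting the 6 C57BL/6 samples on their own gave 11 calls among the 40, and 716 genes higher and 742 lower in all, in place of 1835 and 2032. The averaged effect had 6 calls with DESeq2, 4 with total counts (328 genes higher and 664 lower in all, in place of 763 and 531) and 1 with the Y-linked covariate, in place of 2; that 1 was Chaf1a (adjusted p = 0.0431, against 0.0622 without the covariate, edgeR), and the calls of Cdt1 and Fen1 were both lost. Leaving out 1 sample at a time gave 10 to 24 calls in C57BL/6 with medians from -0.38 to -0.25, 0 calls in BALB/c with medians from 0.0711 to 0.158, 6 to 11 calls between wild types with medians from 0.03 to 0.09, 25 to 34 between mutants with medians from 0.36 to 0.52, 9 to 17 in the interaction with medians from 0.36 to 0.52, and 0 to 7 for the averaged effect with medians from -0.15 to -0.07. The 7 averaged calls came without C57BL/6 mutant 5. Of the single called genes, none reversed sign under any alternative run; in C57BL/6 363 refits kept the call and 57 lost it, and in the interaction 243 kept it and 37 lost it. The cause of these changes was not tested. With 3 samples a group, the SE of the genotype effect in BALB/c ran from 0.06 to 0.17 (log2) among the 40 genes, which limits what can be detected there.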
